A study of Rattus norvegicus with 8 samples.

Results

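miR-103 and miR-107 are near-identical microRNAs (miRNAs), short RNAs that pair with messenger RNAs and repress them, whose hairpin precursors lie within genes of the pantothenate kinase family. They were chosen by name, as rno-miR-103 and rno-miR-107, and make up 2 of the 677 rat miRNAs on the array, with 4 of its 1644 probes and 40 spots per array. The study hybridised total RNA of cardiomyocytes, the contracting cells of the heart, to 8 one-colour arrays, 4 of cells isolated from rats at postnatal day 0 (P0) and 4 of cells isolated at postnatal day 10 (P10). The sample labels give P0 as the younger age, while the series title gives day 1, and P0 is used here. The labels name no strain, treatment or genotype, state that animals of either sex were used and that P10 cells proliferated less than P0 cells, and do not say that the arrays of an age came from separate animals, so spreads between them may be technical.

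Pantothenate kinases catalyse the first and rate-limiting step of coenzyme A synthesis, and miR-103 and miR-107 are produced from introns of their genes in vertebrates. Both miRNAs are known from mouse liver and fat as regulators of insulin sensitivity through caveolin-1, and from human cancer cells as repressors of Dicer. They belong to the wider miR-15 and miR-107 group, defined by the bases AGCAGC near the 5′ end, which also holds miR-15, miR-16, miR-195 and miR-497. In mouse hearts the miR-15 members of that group are known to restrain division of cardiomyocytes after birth.

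The mature sequences are shown because they decide how far the array can tell the members apart. Capitals mark the seed, bases 2 to 8, which pairs with targets. All miRNA, hairpin and host gene records are those of RefSeq on build GRCr8, where both members were matched.
rno-miR-103: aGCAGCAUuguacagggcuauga
rno-miR-107: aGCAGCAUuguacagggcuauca
The seeds were identical, and no other of 693 mature rat miRNAs in the table carried the same bases 2 to 8. Counted from 1 at the 5′ end and written from miR-103 to miR-107, the sequences differed by the single substitution G22C, next to the last of their 23 bases, and 22 bases were identical.

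The 3 hairpins are shown with the mature miRNA in capitals, since 2 of them yield the same miR-103.
Mir103a1: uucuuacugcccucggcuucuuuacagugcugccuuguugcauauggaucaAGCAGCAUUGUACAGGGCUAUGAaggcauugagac
Mir103a2: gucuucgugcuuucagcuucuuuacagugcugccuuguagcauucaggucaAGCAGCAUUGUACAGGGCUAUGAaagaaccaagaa
Mir107: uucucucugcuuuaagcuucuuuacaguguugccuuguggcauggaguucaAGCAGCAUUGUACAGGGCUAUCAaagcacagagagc
In GRCr8, Mir103a1 (chr10:20748474-20748559, plus strand) lay within the span of Pank3, and Mir103a2 (chr3:138963227-138963312, plus strand) within that of Pank2. Mir107 (chr1:241750418-241750504, minus strand) lay within that of Pank1. Each hairpin was on the strand of its host gene. The table used gives no exons, so the position relative to introns was not read from it, and the host transcripts were not measured on this array.

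Each member had 2 probes of 10 spots each, complementary to the 3′ part of the miRNA, and the probe base that differs between the members is in capitals.
miR-103 long probe: tCatagccctgtacaatg
miR-103 short probe: tCatagccctgtacaat
miR-107 long probe: tGatagccctgtacaatgct
miR-107 short probe: tGatagccctgtacaatgc
All 4 probes end at base 23 of the miRNA and start at bases 6 and 7 (miR-103) and 4 and 5 (miR-107), so none covers the whole seed. Each probe differed from a perfect match to the other member by 1 base, C2G for the probes of miR-103 and G2C for those of miR-107, counted from the probe's 5′ end. The miR-103 probes thus match 17 of 18 and 16 of 17 bases of miR-107, and the miR-107 probes match 19 of 20 and 18 of 19 bases of miR-103. Every other mature rat miRNA at least as long as the probe had 5 or more mismatches with each of them. The arrays hold no sample in which 1 member is known to be absent, so the share of each signal that comes from the other member could not be measured, and the readings below are not separate measurements of 2 miRNAs.

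The scanner files place both miR-103 probes at 2 loci of build rn4, the long probe at chr3:118996658-118996675 and chr10:20695083-20695100, and no probe of the mature strand can tell the 2 hairpins apart. They place the miR-107 long probe at chr1:238806890-238806908. The opposite (passenger) strands of the hairpins could separate the loci in principle, and the array carries 3 of them, rno-miR-103-1*, rno-miR-103-2* and rno-miR-107*, with 7 probes. Only the longer of the 2 probes named for miR-103-2* told the miR-103 hairpins apart, with 1 mismatch to Mir103a1 and 0 to Mir103a2. The shorter one and both probes named for miR-103-1* matched both hairpins without a mismatch. The miR-107* probes had 1 mismatch to each miR-103 hairpin. None of 457 unflagged passenger spots over the 8 arrays was well above background, and probe means ran from -6.97 to 0.724 intensity units, so the passenger strands gave no reading of which hairpin was in use.

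Signals are the scanner's background-subtracted intensities averaged over a probe's unflagged spots. Signals were scaled within each array by the 75th percentile of the 111 probes that were detected on every array, and levels are log2 of the scaled signal. P0 replicate 1 was far dimmer than the rest, with a scaling signal of 116 intensity units against 580 to 1326 on the 7 others, and detected 73 miRNAs against 157 to 187. At P10, replicates 1 and 2 were almost the same, as were replicates 3 and 4: the former correlated at r = 0.998 and the latter at 0.997 over the 158 miRNAs tested, and at 0.890 to 0.898 between the pairs. The 8 arrays shared a slide and a scan, P0 occupying the upper row and P10 the lower, so row and age cannot be told apart. For the cardiomyocyte label, miR-1, miR-133a and miR-133b, miRNAs of heart and skeletal muscle, were detected on all 8 arrays, and 6 of 6 cardiomyocyte markers on at least 1. Their detection does not show purity, since 4 of 4 fibroblast markers were detected as well. On P10 replicates 1 and 2 the scaled signals of the fibroblast markers summed to 26.5 and 27.1, against 10.1 and 9.26 for the cardiomyocyte markers. The fibroblast sums were set by a single marker, miR-21, at log2 4.58 and 4.61. Signals of different probes are not comparable amounts, so the sums give no share of either cell type.

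Before scaling, the miR-103 long probe gave 73.9, 1187, 706 and 1047 intensity units on P0 replicates 1 to 4, and 287, 249, 618 and 643 units on P10 replicates 1 to 4. The miR-107 long probe gave 70.3, 1174, 698 and 1039 units at P0, and 264, 223, 668 and 667 units at P10. In these units the ages overlapped, because the dim P0 replicate 1 lay below every P10 array while P0 replicates 2 to 4 lay above them all. No member spot was saturated. Spots of 1 probe on 1 array varied by 1.73% to 6.14% (coefficient of variation) on the 7 brighter arrays and by 5.43% to 9.79% on P0 replicate 1. Both long probes and the miR-107 short probe were well above background in every unflagged spot of every array, and the miR-103 short probe in every one except on P0 replicate 1, where 5 of 10 spots were.

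**Figure D1:**
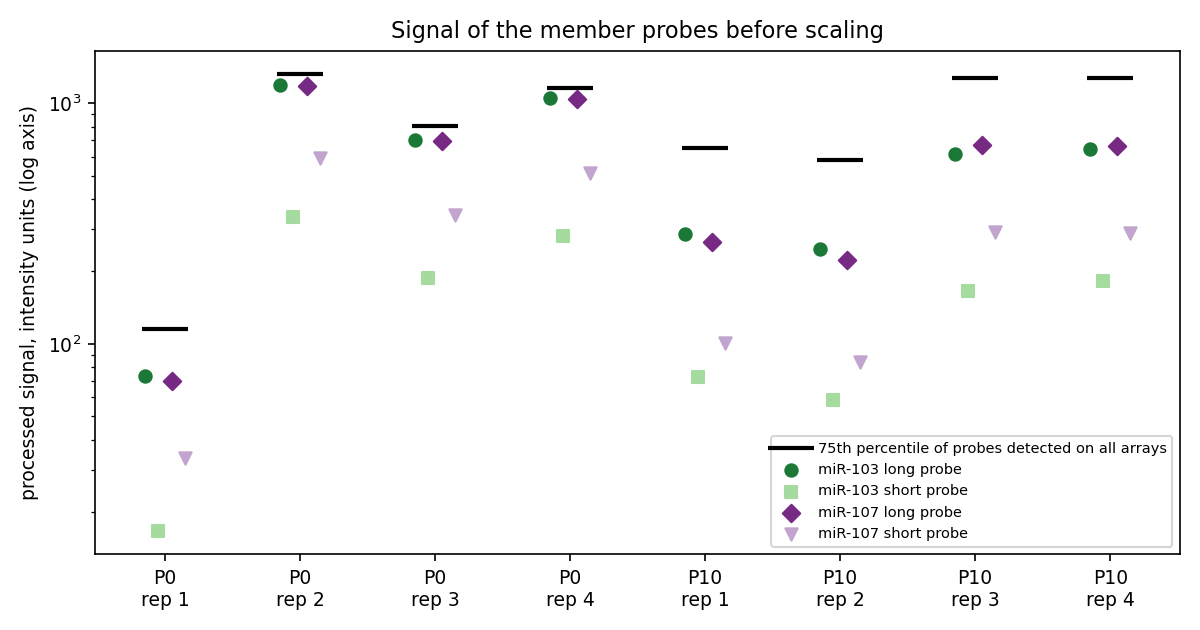
Processed signal of the 4 member probes on each array before scaling, in intensity units on a log axis, with black bars for the 75th percentile used for scaling. Signals of P0 replicate 1, such as 73.9 units for the miR-103 long probe, lie below all others, as does its scaling signal of 116 units.

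After scaling, both members were lower at P10. The miR-103 long probe stood at log2 -0.64, -0.16, -0.19 and -0.15 on P0 replicates 1 to 4 and at -1.18, -1.22, -1.05 and -0.98 on P10 replicates 1 to 4. Every P10 array lay below every P0 array, and P0 replicate 1 lay nearest to P10. The means were -0.29 ± 0.24 (SD, n = 4) at P0 and -1.11 ± 0.11 at P10, a log2 difference, P10 minus P0, of -0.82 ± 0.21 (SE), or a P0 level 1.77 times that at P10.

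The miR-107 long probe stood at -0.72, -0.18, -0.21 and -0.16 at P0 and at -1.30, -1.38, -0.93 and -0.93 at P10. The ages did not overlap here either, and within P10 replicates 1 and 2 lay below replicates 3 and 4. The means were -0.31 ± 0.27 (SD, n = 4) and -1.14 ± 0.24, and the difference of -0.82 ± 0.23 (SE) was that of miR-103 to 2 decimals, with a P0 level again 1.77 times that at P10.

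**Figure D2:**
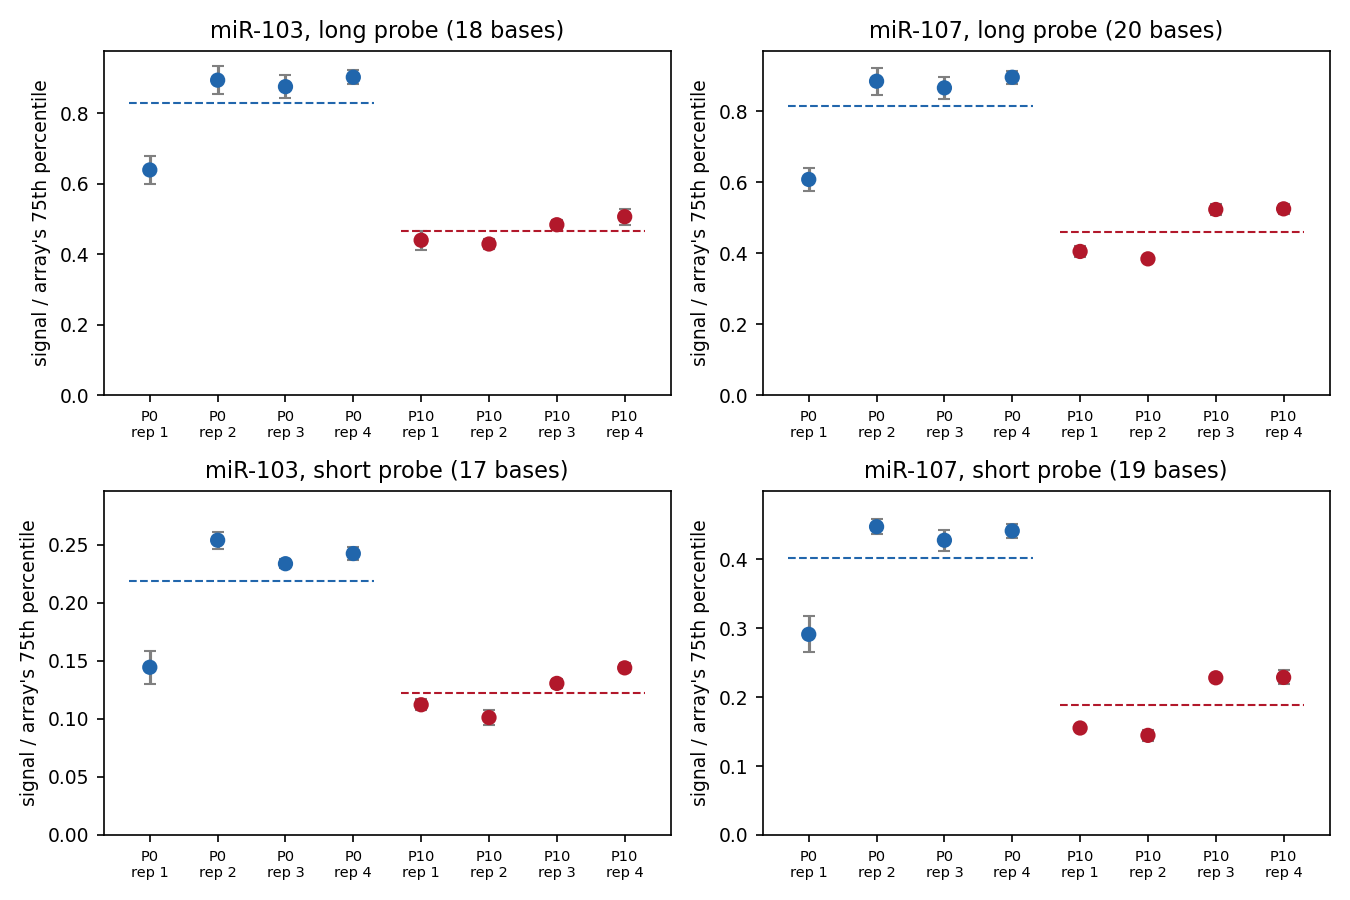
Scaled signal (signal divided by the array's 75th percentile) of each member probe on each array, P0 in blue and P10 in red. Error bars are the SD over a probe's spots and dashed lines the mean of each age. In all 4 panels the P10 arrays lie below P0 replicates 2 to 4, with P0 replicate 1 between them or, for the miR-103 short probe, at log2 -2.79 against a highest P10 value of -2.80.

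The short probes had the same direction. That of miR-103 stood at -2.79, -1.98, -2.10 and -2.05 on the P0 arrays and -3.16, -3.31, -2.94 and -2.80 on the P10 arrays, and differed by -0.82 ± 0.25 (SE). Its P0 replicate 1 value was nearly level with P10 replicate 4 and just above the lowest signal detected on that array, log2 -2.84. The miR-107 short probe stood at -1.78, -1.16, -1.22 and -1.18 at P0 and at -2.69, -2.79, -2.13 and -2.13 at P10 and differed by -1.098 ± 0.261, a P0 level 2.14 times that at P10. Both errors are those of a limma fit over 273 probes. Of the 4 probes it had the largest difference, although the probe differs from the long one of miR-107 by a single base of length.

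The members were chosen with this contrast already known, so their differences are a description with no test. In a limma fit over 158 miRNAs, those detected throughout P0, throughout P10 or both, with an adjusted p threshold of 0.05 (Benjamini-Hochberg), 1 of the 2 members passed as lower at P10, where 4.43% of all tested miRNAs passed as lower and 8.86% in either direction. miR-103 lay just inside the threshold and miR-107 just outside it, with equal differences to 2 decimals and a larger spread for miR-107 within P10. Among the 158 differences, ordered from the lowest, they took places 14 and 15. Both members were without overlap between the ages, as were 25.9% of all tested miRNAs (12.7% without overlap and lower). In bulk RNA, fewer cells that make an miRNA and less of it per cell cannot be told apart.

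Which member was called, and whether any was, changed with the processing. Over 25 alternative settings, 5 called both members, 1 only miR-103, 1 only miR-107 and 18 neither. With each near-identical P10 pair averaged, the differences were unchanged but their SE grew to 0.32 for miR-103 and 0.33 for miR-107, and neither passed. Of the 8 fits that left out 1 array, only that without P0 replicate 1 called the members, both of them, at -1.12 for miR-103 and -1.14 for miR-107. Leaving out that array but keeping the scaling of all 8 gave -0.94 and -0.96. The direction was negative in 24 of the 25 settings for each member, with -0.30 for both when arrays were not scaled. The exception was a percentile taken over all probes, of which 7.06% to 21.1% were detected per array: it gave 0.07 for miR-103, with an SE of 1.49, and 0.06 for miR-107.

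**Figure D3:**
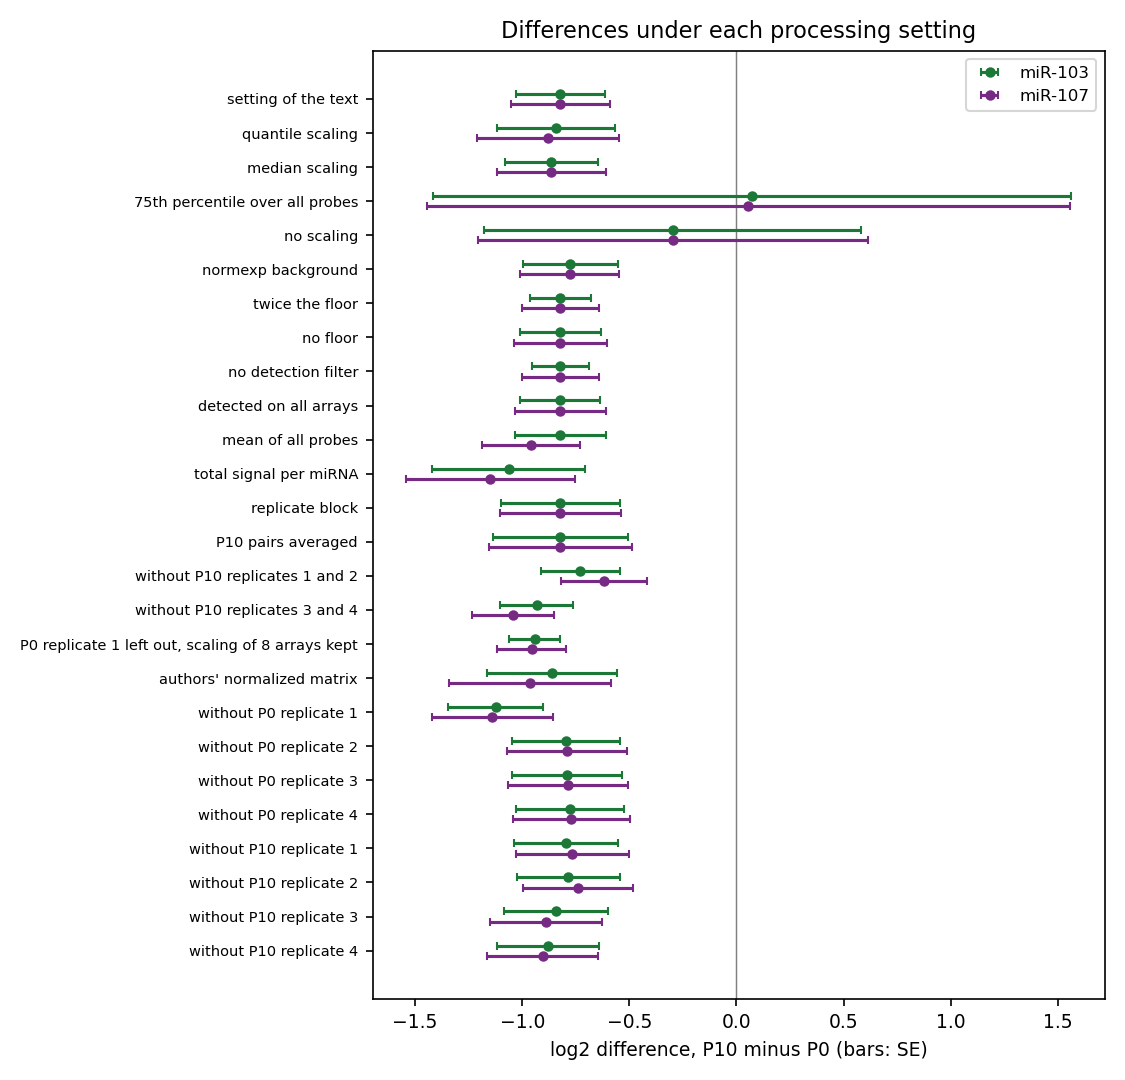
Log2 difference, P10 minus P0, of miR-103 (green) and miR-107 (purple) under the setting of the text and 25 alternatives, with bars for the SE. Points lie between -1.15 and -0.30 except with the 75th percentile over all probes, where they lie at 0.07 and 0.06 with wide bars.

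Within an array, the ratio of 2 probes is free of the scaling, and its change between arrays shows whether the probes moved equally. The log2 ratio of the miR-107 to the miR-103 long probe was -0.07, -0.02, -0.02 and -0.01 on P0 replicates 1 to 4 and -0.12, -0.16, 0.11 and 0.05 on P10 replicates 1 to 4. The P0 arrays lay close together, and the P10 pairs lay on either side of them, at means of -0.14 for replicates 1 and 2 and 0.08 for replicates 3 and 4. The ages overlapped, and the means were -0.03 ± 0.03 (SD, n = 4) at P0 and -0.03 ± 0.13 at P10.

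The short probes gave another picture. Their miR-107 to miR-103 log2 ratio was 1.01, 0.82, 0.87 and 0.87 on the P0 arrays and 0.47, 0.52, 0.81 and 0.67 on the P10 arrays. All P10 values lay below all P0 values, by the narrowest margin for P10 replicate 3, and the means differed by -0.28. The 2 probes of miR-107 parted by age: short over long stood at -1.06, -0.98, -1.02 and -1.02 at P0 and -1.38, -1.41, -1.20 and -1.20 at P10. These groups did not overlap, and their means differed by -0.28. Both ratios contain the miR-107 short probe, so they are not separate observations. For miR-103 the same ratio ran from -2.15 to -1.82 at P0 and from -2.09 to -1.82 at P10, overlapped fully and differed by 0.00. The size of the change read for miR-107 thus depended on its probe, that of miR-103 did not, and no test was made of either.

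**Figure D4:**
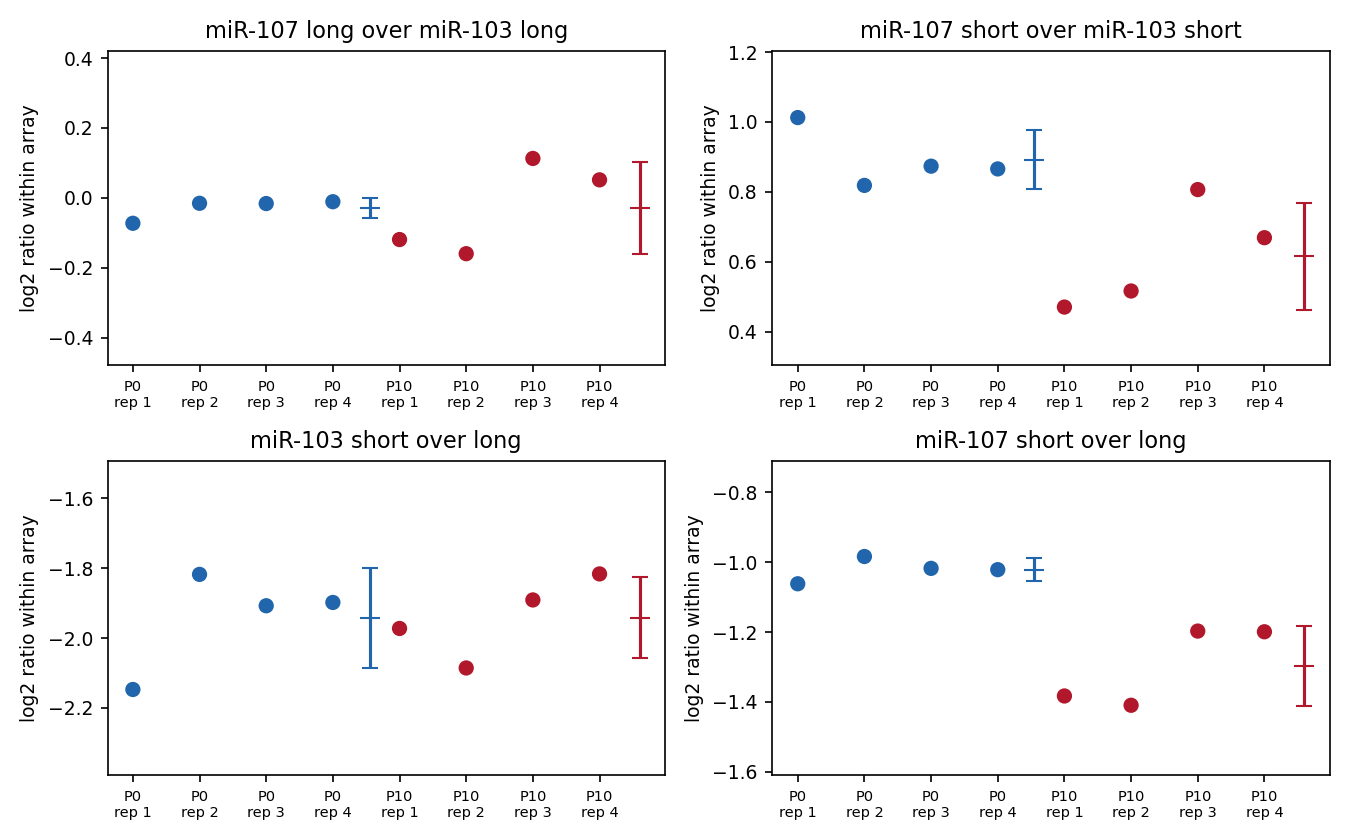
Log2 ratio of 2 member probes within each array, P0 in blue and P10 in red, with the mean and SD of each age beside the points. The lower right panel shows miR-107 short over long with all 4 P10 arrays (-1.41 to -1.20) below all 4 P0 arrays (-1.06 to -0.98). In the lower left panel miR-103 short over long overlaps fully, with P0 replicate 1 the lowest of all at -2.15.

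Across the 8 arrays the 4 probes followed each other. Pearson's r between their log2 levels was 0.985 for the 2 long probes and ran from 0.976 to 0.997 over the 6 pairs, and from 0.978 to 0.999 without P0 replicate 1. These are descriptions over arrays that share a scaling and include near-identical pairs, from probes whose binding of the other member was not measured. The 2 probes of miR-107 had the highest r, 0.997.

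Of 68 other miRNAs detected on all 8 arrays, miR-143, known from smooth muscle, had the level most like both members over the 8 arrays, with r = 0.992 to miR-103 and 0.995 to miR-107. For miR-103 it was followed by miR-652 (r = 0.970), the hypoxia-induced miR-210 (0.934), miR-378, hosted in mouse by the coactivator gene Ppargc1b (0.928), and miR-301a (0.920). For miR-107 the others were miR-301a (0.970), miR-30b-5p and miR-652 (both 0.968) and miR-181a (0.953). Without P0 replicate 1, miR-143 kept the highest r to miR-103 at 0.993, and miR-652 took its place for miR-107 at 0.998. The differences of these miRNAs ran from -2.09 ± 0.34 (SE) for miR-210 to -0.54 ± 0.24 for miR-181a.

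Levels of other cell markers moved beside the members. The smooth muscle list, miR-143 and miR-145, both detected on at least 1 array, summed to scaled signals of 1.34 to 2.17 on the P0 arrays and 0.852 to 1.17 on the P10 arrays. The sum was set by miR-143, named above for its likeness to the members, so it is not a separate observation. miR-145 differed by -0.69 ± 0.37 (SE) without passing, and its ages overlapped, with P0 replicate 1 at log2 -5.06 and P10 replicates 3 and 4 at -4.45 and -4.36. The part of the smooth muscle levels in the members' difference was not tested. The fibroblast list (miR-199a-3p, miR-199a-5p, miR-214 and miR-21, 4 of 4 detected) summed to 4.12 to 6.96 on the P0 arrays, 26.5 and 27.1 on P10 replicates 1 and 2, and 4.89 and 4.86 on P10 replicates 3 and 4. Its brightest marker, miR-21, set that sum. On P10 replicates 3 and 4 miR-21 (log2 2.21 on both) lay within its P0 range. There miR-199a-3p (-2.78 and -2.97), miR-199a-5p (-4.70 and -4.62) and miR-214 (-3.64 and -3.71) lay above all their P0 values, the highest being -3.44, -5.03 and -4.08. The cardiomyocyte list summed to 11.6 to 17.1 at P0, to 10.1 and 9.26 on P10 replicates 1 and 2, and to 19.9 and 20.7 on P10 replicates 3 and 4. The brightest of its members, miR-1 and miR-133b, set that sum. Its dimmer markers did not move alike. miR-499, a miRNA of heart muscle, lay at log2 -2.64 and -2.54 on P10 replicates 3 and 4 and between -2.21 and -1.94 on P0 replicates 2 to 4. It lay at -3.23 on P0 replicate 1 and at -3.55 and -3.72 on P10 replicates 1 and 2, so the ages overlapped. Its difference of -0.75 ± 0.39 (SE) did not pass. miR-208 had the floor value throughout P0 and lay at -4.45 and -4.34 on P10 replicates 3 and 4. It passed the limma test as higher at P10 (1.14 ± 0.25, SE), as did 4.43% of all tested miRNAs, but was detected on only 1 of 4 P0 arrays. miR-208b-3p, not tested, lay at -5.44 and -5.21 on P10 replicates 3 and 4. The members' long probes differed from the P0 mean by -0.73 (miR-103) and -0.62 (miR-107) on P10 replicates 3 and 4, and by -0.92 and -1.03 on replicates 1 and 2. The part of the fibroblast and cardiomyocyte levels in these differences was not tested. The endothelial list, of which 1 of 2 was detected, summed to 0 on P0 replicate 1, to 0.0541 to 0.0609 on the other P0 arrays and to 0.149 to 0.247 at P10. The leukocyte list, of which 4 of the 5 on the array were detected, summed to 0.188 on P0 replicate 1, to 0.0245 to 0.0558 on the other P0 arrays, to 0.208 and 0.205 on P10 replicates 1 and 2, and to 0.0714 and 0.0569 on replicates 3 and 4. Its miR-146a, an miRNA induced in inflammation, passed the limma test as higher at P10 (1.85 ± 0.48, SE), as did 4.43% of all tested miRNAs. It had the floor value throughout P0, was detected on 1 of 4 P0 arrays and so entered the test through P10. The other leukocyte marker tested, miR-223, went the other way (-0.24 ± 0.69) without passing, and was highest on P0 replicate 1, at log2 -2.41. The part of the endothelial and leukocyte levels in the members' difference was not tested either. The erythroid list, of which 1 of 2 was detected, summed to 0 on P0 replicate 1 and to 0.0238 to 0.0336 on the other P0 arrays. At P10 it summed to 0 on replicates 1 and 2 and to 0.0180 and 0.0170 on replicates 3 and 4, and its part was not tested. The neural list (1 of 3 detected) summed to 0 on P0 replicate 1, to 0.0657 to 0.0697 on the other P0 arrays and to 0.0504 to 0.0631 at P10. The liver list summed to 0 except on P0 replicate 2 (0.0169). The 6 epithelial markers were not detected on any array.

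The rest of the miR-15 and miR-107 group shows whether miRNAs with a shifted form of the same bases moved alike. AGCAGC, in capitals, starts at base 1 in the members and at base 2 in 6 other rat miRNAs, all of them on the array.
rno-miR-103: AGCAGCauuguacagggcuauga
rno-miR-15b: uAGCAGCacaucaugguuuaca
rno-miR-16: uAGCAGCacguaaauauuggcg
rno-miR-195: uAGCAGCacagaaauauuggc
rno-miR-322: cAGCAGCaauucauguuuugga
rno-miR-497: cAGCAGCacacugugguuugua
rno-miR-503: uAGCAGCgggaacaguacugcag
Of these 6, 2 passed the test as higher at P10 (4.43% of all tested did), miR-497 at 2.30 ± 0.29 and miR-195 at 2.12 ± 0.31 (SE, n = 4 per age), and 0 passed as lower. Both of these were detected on every array only at P10, so they entered the test through the age where they were higher. Neither was tested when only miRNAs detected on all arrays were. Of the list's 8 names, miR-424 and miR-646 are not on the array. The median of the 6 was 0.29, against 0.03 over all 158 tested miRNAs.

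The 4 that did not pass differed by 0.42 ± 0.75 (miR-503), 0.16 ± 0.25 (miR-16), 0.10 ± 0.38 (miR-15b) and -0.23 ± 0.39 (miR-322). miR-16, one of the abundant members of the group, stood at log2 0.26, 0.81, 0.80 and 0.86 at P0 and 1.116, 1.101, 0.652 and 0.504 at P10, so the ages overlapped, with P10 replicates 1 and 2 highest. miR-15b, encoded beside a copy of miR-16, ran from -1.14 to -0.49 at P0 and stood at 0.08 and 0.08 on P10 replicates 1 and 2 and at -1.12 and -1.35 on replicates 3 and 4. Between the P10 pairs these miRNAs and the members were ordered oppositely: replicates 1 and 2 held the higher levels of all 6 and the lower levels of both members. Other miRNAs parted the pairs too. miR-21 was at log2 4.58 and 4.61 on replicates 1 and 2 and 2.21 on replicates 3 and 4, and miR-133b at 2.54 and 2.39 against 3.58 and 3.69. The share of all tested miRNAs in either order was not counted, so the order is not shown to be particular to the group or the members. miR-497 and miR-195 lay at or near the floor, the lowest level used (log2 -5.89), on P0 arrays. miR-195 was detected on 2 and miR-497 on 3 of the 4 P0 arrays, so their sizes depend on that floor: with the floor doubled they were 1.51 and 1.21 for miR-497 and miR-195, and with normexp background correction 0.41 and 0.28. With total signals per miRNA both turned negative, to -0.40 and -1.49. Signs of the others turned as well: without P0 replicate 1, miR-15b, miR-16 and miR-503 were at -0.24, -0.16 and -0.17, and with no scaling miR-322 was at 0.29.

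**Figure D5:**
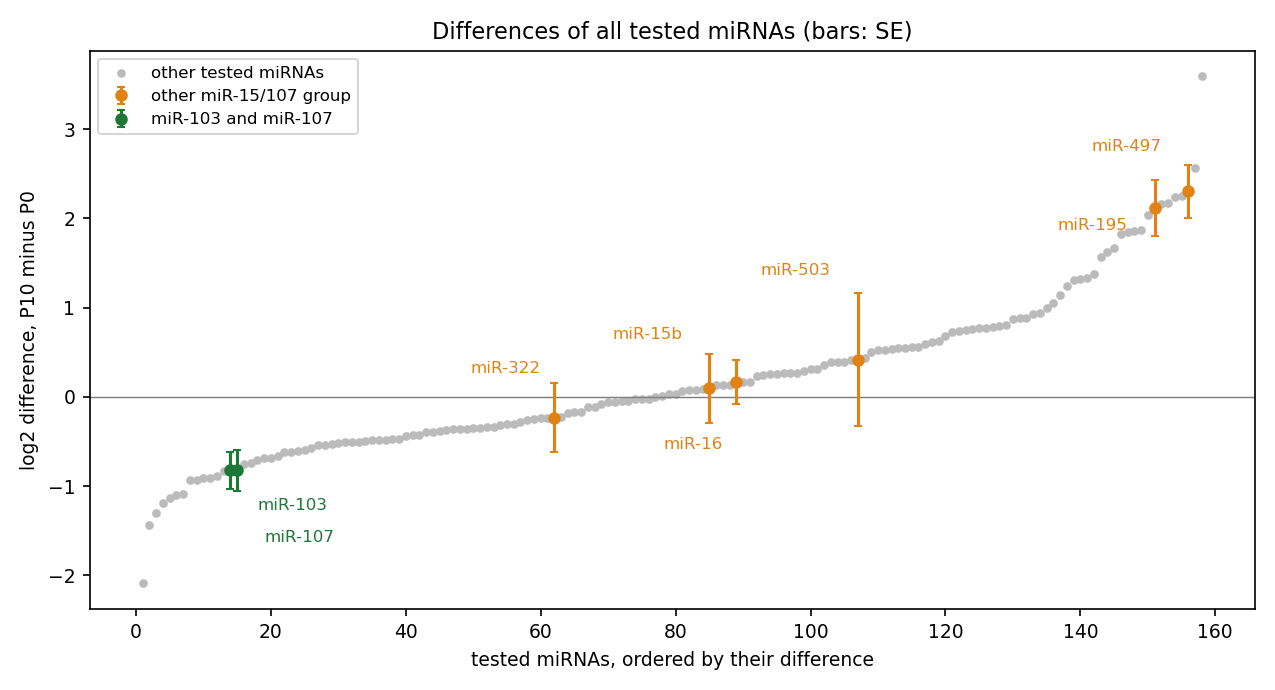
Log2 difference, P10 minus P0, of all 158 tested miRNAs in order, with miR-103 and miR-107 in green (both at -0.82) and the 6 other measured miRNAs of the miR-15 and miR-107 group in orange. Bars are SE; the orange points run from -0.23 to 2.30.

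A list of 11 miRNAs linked to glucose and lipid metabolism was set beside the members because that is their best known role. Of the 9 tested, 1 passed as higher, miR-29a (2.25 ± 0.53, SE), and 2 as lower, miR-143 (-0.92 ± 0.23) and miR-378 (-0.91 ± 0.23), where 4.43% of all tested miRNAs passed in each direction. These calls lay just inside the threshold. miR-29a stood at log2 1.58 and 1.61 on P10 replicates 1 and 2 and at -0.40 and -0.32 on replicates 3 and 4. Its difference was 1.27 without P10 replicates 1 and 2 and 3.21 without replicates 3 and 4. The list's median was 0.03, that of all tested miRNAs. Among those that did not pass, the largest differences were 1.85 ± 0.58 for miR-29b, -1.30 ± 0.43 for miR-335 and 0.93 ± 0.37 for miR-27a. Without P0 replicate 1, miR-27a was at 0.59. miR-122, abundant in liver, was not detected on any array.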

How the data were processed

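The deposited scanner files hold intensity values written by Agilent Feature Extraction 10.7.1.1, per the submitters' processing notes and the file headers: gProcessedSignal is background-subtracted and spatially detrended within an array, with no scaling between arrays. The authors' deposited matrix of log2 values, for which no source used here names the normalization, and the deposited spot table of the same intensities served as an alternative and as a check, respectively.

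Outlier-flagged spots were left out and a probe's other spots averaged. Detection of a probe required a share of 0.5 or more of its spots to be well above background. After scaling, signals were floored at 0.0169 (log2 -5.89, the median across arrays of each array's dimmest detected probe). The brightest probe stood for an miRNA. Differences came from limma 3.58.1 (lmFit, eBayes) in R 4.3.3, tested on simulated data. Array number limits precision. Members and lists were chosen with earlier results of these data known. Named are the members, their passenger strands, the rest of the miR-15 and miR-107 group, up to 4 tested metabolism-linked miRNAs with the largest differences (miR-143 and miR-378 were added, as calls), and the 5 miRNAs most like each member. Replicate numbers pair nothing in the labels. P0 and P10 samples with the same number had deviations correlated at -0.15 to 0.16, so they were not treated as pairs. The P10 sample with the highest correlation had the same number for P0 replicates 1, 3 and 4, and number 4 for P0 replicate 2. A fit with the replicate number as a block is given below.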

Additional observations from a re-analysis of the deposited data

Results flagged for a closer look

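P0 replicate 1 stood apart from the other P0 arrays in 5 of the 8 sets of P0 values examined for the members (4 probe levels and 4 ratios), each time as the lowest value, by Dixon's test of the gap over the range; chance gives about 1 in 20. None of the 8 sets of P10 values was marked. Its log2 level was -0.64 for the miR-103 long probe (others -0.19 to -0.15), -2.79 for the miR-103 short probe (others -2.10 to -1.98), -0.72 for the miR-107 long probe (others -0.21 to -0.16) and -1.78 for the miR-107 short probe (others -1.22 to -1.16). The within-array log2 ratio of the miR-107 to the miR-103 long probe was -0.073 there, against -0.02 to -0.01. The 4 level values share 1 array and 1 scaling signal and are not separate observations. It is also the dimmest array, and the part of its dimness in these values was not tested.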

How the results depend on the processing

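Both members kept a negative difference in 24 of 25 settings, and 21 values of each moved by less than 1 SD. The 4 others were 0.074 and 0.056 (miR-103, miR-107) with the percentile over all probes, -0.30 and -0.30 with no scaling, -1.06 and -1.15 with the total signal per miRNA, and -1.12 and -1.14 without P0 replicate 1. Without 1 array at a time they ran from -1.12 to -0.78 for miR-103 and from -1.14 to -0.74 for miR-107. The numbers of miRNAs called higher and lower, 7 and 7 here, ran from 2 to 25 and from 2 to 46 without 1 array at a time. They were 22 and 41 with P0 replicate 1 left out and the scaling kept, 50 and 26 without P10 replicates 3 and 4, and 11 and 0 with no scaling. They were 0 and 0 with the percentile over all probes, with normexp, with total signals and with P10 pairs averaged, where limma gave 19, 22, 35 and 26 miRNAs at an unadjusted p under 0.05. They were 1 and 3 with no floor and with no detection filter, 4 and 4 with the mean of all probes, and 1 and 1 in the authors' matrix. They were 5 and 15 with the floor doubled, and 2 and 10 when only the 70 miRNAs detected on all arrays were tested. With the replicate number as a block they were 3 and 1, and the members stayed at -0.82 with neither called. The cause of these changes was not tested. The median difference of all tested miRNAs was 0.03, and 0.35 with no scaling, where the members lay at -0.65 relative to it. It was 0.29 with the percentile over all probes, where they lay at -0.22 and -0.24 relative to it. The signal of P0 replicate 1 limits what weak probes show.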
